A study of Mus musculus with 12 samples.

Results

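Genomic imprinting leaves a gene active from only the maternal or only the paternal copy, through DNA methylation set in the egg or the sperm. The 42 genes described here are imprinted mouse genes from 19 clusters or single loci, and they were chosen from a list written when values of the iCreb5 and tdTomato comparison were already known. All 42 were found by symbol among the 54532 genes of the expression table, and all 42 were among the 16733 genes that passed the filter on low values. Many imprinted genes act on fetal growth: several paternally expressed ones, such as Igf2, promote it, while several maternally expressed ones, such as H19, Cdkn1c, Phlda2 and Igf2r, restrain it or clear growth factor. In embryonic mesenchyme many of these genes are abundant before birth and are shut down as organs mature. Textbook knowledge gives the copy named for each gene below, because the sequence counts do not tell the parental copies apart.

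The cells were limb bud mesenchyme of mouse embryos at day E14.5, and every embryo carried a Prrx1-Cre transgene from its father, which drives Cre recombinase in limb mesenchyme. From its mother each embryo had received either a Rosa26 allele that Cre switches on to make bovine Creb5 with an HA tag and GFP (6 libraries, called iCreb5) or a Rosa26 allele that Cre switches on to make the red protein tdTomato (6 libraries, the controls). Creb5 is a transcription factor of the CREB and ATF family, whose known binding site is the cAMP response element TGACGTCA. About 250000 to 500000 sorted cells went into each polyA RNA library. No unrecombined or Cre-free group was analysed here, so the tdTomato libraries, which also carry Prrx1-Cre and a switched-on allele, are the only reference.

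Libraries held 21592364 to 49214786 counted reads in iCreb5 and 9024162 to 53269417 in tdTomato. The labels name 4 litters: the 3rd litter gave 3 libraries of each group, and the 4th, 5th and 6th gave 1 of each. The mouse Creb5 row had 2555 to 3162 normalised counts in iCreb5 and 1470.5 to 2217 in tdTomato, with no overlap, and no source says whether reads of the bovine transgene were counted there. The library tdTomato 5b stood apart: its normalised counts summed to 28020053, against 25195023 to 26323981 in the other tdTomato libraries. It was the highest tdTomato library for 17 of the 42 imprinted genes (40.5%) and for 28.8% of all genes tested.

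Markers of other cell types also differed between the groups. All 10 chondrocyte markers, Matn1, Comp, Hapln1 and Snorc with the widest change, were called lower in iCreb5, with a summed level of 89805 to 121315 normalised counts against 170864 to 370051 in tdTomato. Of 11 leukocyte markers, 10 were called higher (Ptprc, Mrc1, Csf1r and C1qa with the widest change), summing to 2077 to 9191 against 516 to 915, and of 8 endothelial markers 5 were called higher (Pecam1, Tie1, Cdh5 and Kdr among them), summing to 1434 to 4041 against 1139 to 1629. None of the 13 skeletal muscle or 6 red cell markers tested was called by limma, edgeR or DESeq2 (0 also at an unadjusted p under 0.05). The 7 red cell markers of the list summed to 5026 to 30711 normalised counts in iCreb5 and 2341 to 40233 in tdTomato. Of 10 limb mesenchyme markers 1 (Tbx4, higher) was called, and of 8 epidermal markers 1 (Krt8, lower). Of 6 Schwann cell markers 5 were tested, 1 (Sox10) was called lower and all 5 had a log2 difference below 0 (median -0.86), and the 6 summed to 142 to 329.6 normalised counts in iCreb5 and 348 to 440.1 in tdTomato, with no overlap. Of 7 neuronal markers 5 were tested and 1 (Stmn2) was called lower, while only 2 of the 5 had a log2 difference below 0 (median 0.08). The sums over the 7, of 255 to 386 in iCreb5 and 351 to 515 in tdTomato, overlapped. No marker of these lists was at 0 in every library, and limb mesenchyme markers such as Col1a1 and Lum were abundant in both groups. In bulk samples fewer cells of a type and less RNA per cell cannot be told apart, and the part of these marker changes in the values below was not tested.

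Promoter sequence is shown first for the imprinted genes whose RefSeq promoter window (250 bases before to 50 after a start site, build GRCm38.p6) holds the element TGACGTCA, because Creb5 belongs to the family that binds it. Windows were found for 37 of the 42 genes, 54 windows in all. The element, searched on both strands, was in 4 of these 54 windows (7.41%) and in 1.79% of all 32851 windows. The shorter motif TGACG, which lies inside it, was in 20 of 54 (37.0%) against 20.8% of all windows, and the AP-1 motif TGANTCA was in 2 of 54 (3.70%) against 7.81%. Windows of neighbouring start sites share sequence, and a match is a description of letters, not of a bound site. In each stretch the capitals mark TGACGTCA, the build is GRCm38.p6, and the last base is the one just before the start site of the named gene.
Peg3 promoter, chr7:6730420-6730605, minus strand: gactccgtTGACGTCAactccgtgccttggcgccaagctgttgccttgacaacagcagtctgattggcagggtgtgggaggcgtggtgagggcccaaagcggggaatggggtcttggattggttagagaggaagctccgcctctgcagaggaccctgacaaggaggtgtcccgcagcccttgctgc
Meg3 promoter, chr12:109540906-109540995, plus strand: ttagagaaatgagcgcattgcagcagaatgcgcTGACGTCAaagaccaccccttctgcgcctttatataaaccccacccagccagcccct
Zdbf2 promoter, chr1:63273179-63273268, plus strand: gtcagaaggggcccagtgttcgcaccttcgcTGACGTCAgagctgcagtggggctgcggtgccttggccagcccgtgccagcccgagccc
The Peg3 stretch is also the promoter of Usp29, which is transcribed away from Peg3 on the opposite strand with 163 bases between the start sites. The single element there, at chr7:6730590-6730597, begins 178 bases before the Peg3 start and at base 8 after the Usp29 start, so it accounts for 2 of the 4 windows. Of these 4 genes only Usp29 was called between the groups; Peg3, Meg3 and Zdbf2 had log2 differences of -0.94, -0.38 and -0.28.

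Several imprinted transcripts carry microRNA hairpins: 23 hairpins with 44 mature miRNAs lie on the strand of 8 of the 42 genes, 14 of them within Mirg. The libraries measure polyadenylated host transcripts, not mature miRNAs. Mature sequences are given for 7 of those within host genes that were called lower, since the host is what the libraries measured; they come from RefSeq, and capitals mark the seed, bases 2 to 8.
miR-675-5p, in H19, chr7:142577112-142577133, minus strand: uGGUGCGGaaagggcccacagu
miR-675-3p, in H19, chr7:142577078-142577099, minus strand: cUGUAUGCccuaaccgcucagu
miR-483-5p, in Igf2, chr7:142654968-142654989, minus strand: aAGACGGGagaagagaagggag
miR-483-3p, in Igf2, chr7:142654932-142654952, minus strand: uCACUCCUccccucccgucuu
miR-335-5p, in Mest, chr6:30741314-30741336, plus strand: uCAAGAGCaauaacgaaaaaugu
miR-3099-3p, in Usp29, chr7:6803638-6803659, plus strand: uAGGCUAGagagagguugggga
miR-370-3p, in Rian, chr12:109618305-109618326, plus strand: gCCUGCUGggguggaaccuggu
None of these 7 shares its seed with another of the 44. The only shared seed was that of miR-453 and miR-496a-5p, both within Mirg.

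Of the 42 imprinted genes, 14 were called lower in iCreb5, 1 (Nap1l5) was called higher and 27 were not called, where called means an adjusted p under 0.05 in limma over all 16733 genes. Among all genes tested 2.85% were called lower and 3.87% higher. The log2 difference, iCreb5 minus tdTomato on the log2(value + 1) scale, was below 0 for 34 of the 42 (81.0%) with a median of -0.40, against 49.4% and a median of 0.00 over all genes. Because the list was written with these differences known, its counts describe the list and support nothing further, and no p is given for its genes in this comparison. Groups did not overlap for 8 of the genes that fell (H19, Rian, Mest, Peg10, Asb4, Usp29, Zim1 and Ddc) and for Nap1l5, against 1.92% of all genes lower and 2.83% higher without overlap.

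By parental copy, 6 of 13 maternally expressed genes were called lower, 12 had a difference below 0 and the median was -0.62. Of 22 paternally expressed genes 7 were called lower and 1 higher, with 17 below 0 and a median of -0.32. The 7 genes classed here as imprinted by isoform or tissue (Ube3a, Grb10, Ddc, Blcap, Gnas, H13 and Inpp5f) had 1 call, Ddc, and a median of -0.10. Whether a gene of any class was expressed from a single parental copy in these cells was not measured. Genes called lower were therefore in both the maternal and the paternal class, and the difference between the classes was not tested. Per library, the median deviation of the maternally expressed genes from their 12-library means was -0.51 to -0.13 in iCreb5 and 0.25 to 0.43 in tdTomato on the log2 scale, and that of the paternally expressed genes was -0.34 to -0.03 and 0.03 to 0.35. The isoform or tissue class overlapped between the groups, at -0.09 to 0.02 in iCreb5 and -0.13 to 0.22 in tdTomato.

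**Figure D1:**
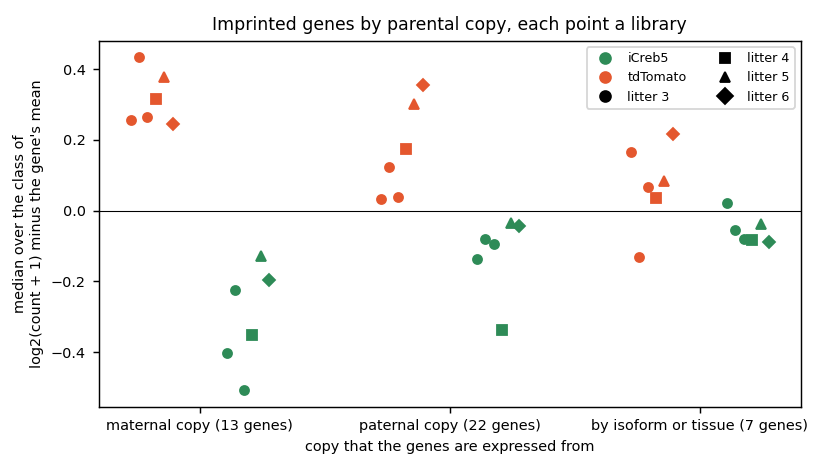
Each point is a library (colour, group; shape, litter); the y axis is the median, over the genes of a class, of log2(normalised count + 1) minus each gene's mean over 12 libraries. The iCreb5 and tdTomato points separate for the maternally and the paternally expressed genes, in a list written with these values known. They overlap for the 7 genes classed as imprinted by isoform or tissue.

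**Figure D2:**
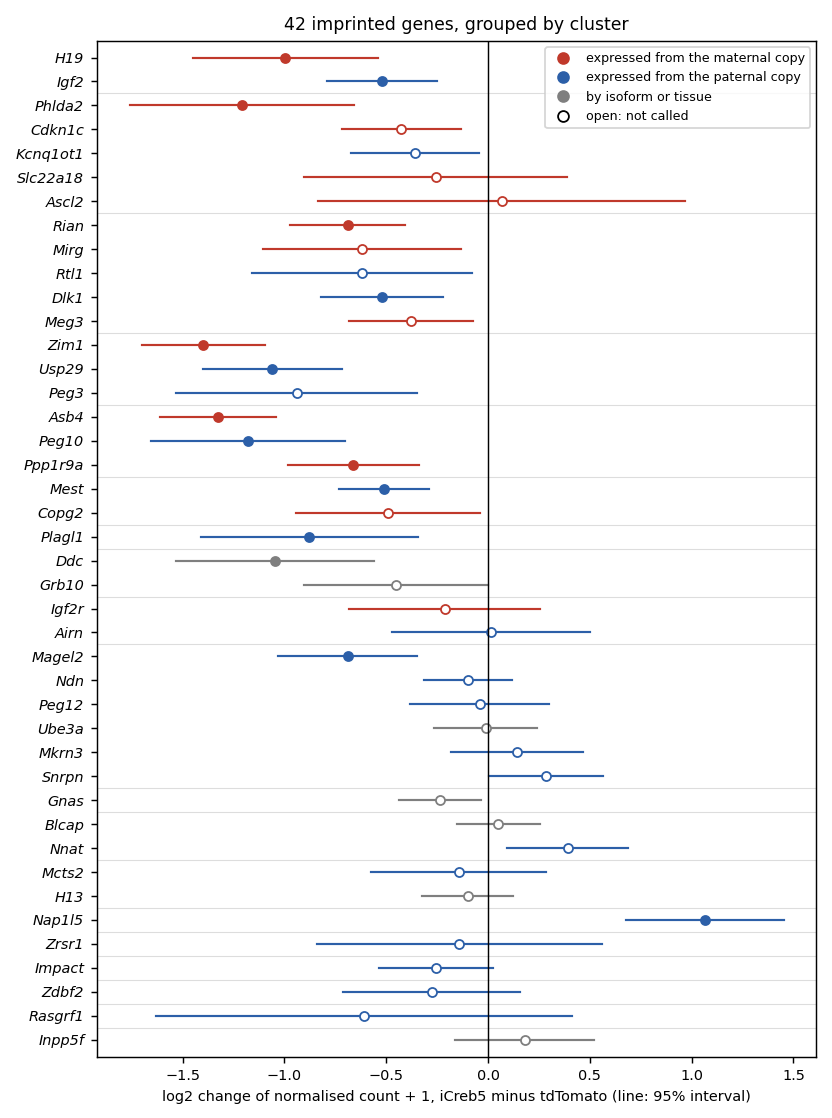
The x axis is the log2 difference of normalised count + 1, iCreb5 minus tdTomato, with its 95% interval from limma (6 libraries a group); genes are in rows grouped by cluster, coloured by the copy they are expressed from, and filled where called. Of 42 genes 34 lie left of 0, and Nap1l5 is the filled point on the right.

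H19 and Igf2 are neighbours at the distal end of mouse chromosome 7, where a single differentially methylated region lets enhancers act on H19 from the maternal copy and on Igf2 from the paternal copy. H19 (ENSMUSG00000000031, chr7:142575529-142578143), a long noncoding RNA that hosts miR-675, had a lowest, median and highest value of 14454, 17373 and 27070.3 normalised counts in iCreb5. In tdTomato these were 31654, 32776 and 77875. The highest iCreb5 library was below the lowest tdTomato library, and H19 fell 1.99-fold (log2 difference -0.995, SE 0.21, 95% interval -1.45 to -0.54, n = 6 each). A single library set the tdTomato spread: tdTomato 5b had 77875 and the other 5 had 31654 to 33671, and without it the log2 difference was -0.79 and H19 was still called. Igf2 (chr7:142650766-142666816), the fetal growth factor, had 42027, 51462 and 59428 in iCreb5 and 56012, 75469 and 91027 in tdTomato. The groups overlapped, with 4 of 6 iCreb5 libraries below every tdTomato library, and Igf2 fell 1.43-fold (log2 difference -0.52, SE 0.13); it was no longer called when iCreb5 3a or iCreb5 4a was left out. Of the merged Igf2 exons 62.8% are also exons of a readthrough gene, Gm49394, which held 43.4 normalised counts on average. The ratio of H19 to Igf2 counts within a library was 0.325 to 0.456 in iCreb5 and 0.401 to 0.856 in tdTomato, so the ratios overlapped. Genes of the maternal and the paternal copy thus both fell here.

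Imprinted genes that act on IGF2 or its receptors, Igf2r with its antisense Airn and Grb10, were not called. Igf2r, the maternally expressed receptor that clears IGF2, ranged 1834 to 5115 in iCreb5 and 2467 to 3961 in tdTomato (log2 difference -0.21 ± 0.22 SE). Airn, the paternally expressed antisense RNA that silences Igf2r on the paternal copy, ranged 436 to 715 and 375 to 1171 (log2 difference 0.01 ± 0.23 SE), with tdTomato 5b the highest. Its annotated exons hold 3597 bases of chr17:12741311-12860136, and Airn RNA outside them or without a polyA tail may not be counted. Grb10, an adaptor that damps insulin and IGF receptor signalling, ranged 11429 to 28651 and 18692 to 34589 (log2 difference -0.45 ± 0.21 SE). With litter as a replicate block, Grb10 was called lower when the 3rd litter was averaged (-0.56) and in the 4th to 6th litters alone (-0.66), and Igf2r was called lower in the 4th to 6th alone (-0.70). None of 18 tested of 19 IGF ligands, receptors and binding proteins, none of them among the 42, was called by limma, with a median of -0.11; 4 had an unadjusted p under 0.05, and edgeR called 0 and DESeq2 1. The most abundant of them were Igfbp4 at 31977 ± 4037 (SD) normalised counts in iCreb5 against 30134 ± 3828 in tdTomato, n = 6 each, and Igfbp3 at 13188 ± 2028 and 11771 ± 1251.

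The Kcnq1ot1 cluster lies beside H19 and Igf2, and its paternally transcribed long noncoding RNA Kcnq1ot1 silences the neighbouring genes on the paternal copy. Phlda2 (chr7:143501545-143503150), a maternally expressed protein known for limiting placental growth, had 136, 194 and 389 normalised counts in iCreb5 and 332, 449.8 and 752 in tdTomato. It was the only call among 5 genes of the cluster and fell 2.31-fold (log2 difference -1.21, SE 0.26), although iCreb5 5 reached the tdTomato range. Cdkn1c (chr7:143458339-143461050), the maternally expressed cell cycle inhibitor p57, had 58593, 73506 and 98194 in iCreb5 and 84021, 95705 and 126841 in tdTomato. Of its 6 iCreb5 libraries 5 were below every tdTomato library, and the log2 difference of -0.43 (SE 0.14) was not called. It was called with litter as a replicate block or without iCreb5 5, and not when that block was used with the 3rd litter averaged to 1 library a group (log2 difference -0.35) or in the 4th to 6th litters alone (-0.27). On the opposite strand 30.7% of its exons are shared with Gm44732, at 131 normalised counts on average. Kcnq1ot1 itself ranged 1578 to 2387 and 1964 to 3188 (log2 difference -0.36), while Slc22a18, a transporter, and Ascl2, a transcription factor of the placenta, stayed under 150 normalised counts in every library and were not called.

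The Dlk1 and Meg3 cluster on chromosome 12 has protein-coding genes on the paternal copy and noncoding RNAs on the maternal copy. Dlk1 (chr12:109452823-109463336), a transmembrane protein with EGF repeats that holds back differentiation of mesenchymal cells, had 41967, 50509 and 61234 normalised counts in iCreb5 and 48965, 77755 and 90675 in tdTomato. It fell 1.43-fold (log2 difference -0.52, SE 0.14) with overlapping groups, and the call did not hold when any of 9 single libraries was left out (iCreb5 3a, 3b, 3c and 4a, tdTomato 3b, 3c, 4a, 5b and 6d). Rian (chr12:109603940-109661716), a maternally expressed host of snoRNAs and miRNAs, had 1999, 2610.3 and 2797 in iCreb5 and 3202, 4002 and 5668 in tdTomato, without overlap, and fell 1.61-fold (log2 difference -0.69, SE 0.13). Meg3, the maternally expressed noncoding RNA at the start of this transcribed stretch, ranged 10306 to 18881 in iCreb5 and 18320.2 to 25987 in tdTomato. Its low value of 10306 was iCreb5 3c, and the other 5 iCreb5 libraries were at 17641 to 18881. All iCreb5 libraries but 3b were below every tdTomato library, and Meg3 was not called (log2 difference -0.38, SE 0.14). Mirg, a host of many miRNAs, and Rtl1, a retrotransposon-derived protein of the paternal copy, had log2 differences of -0.62 ± 0.23 and -0.62 ± 0.26 (SE) and were not called.

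**Figure D3:**
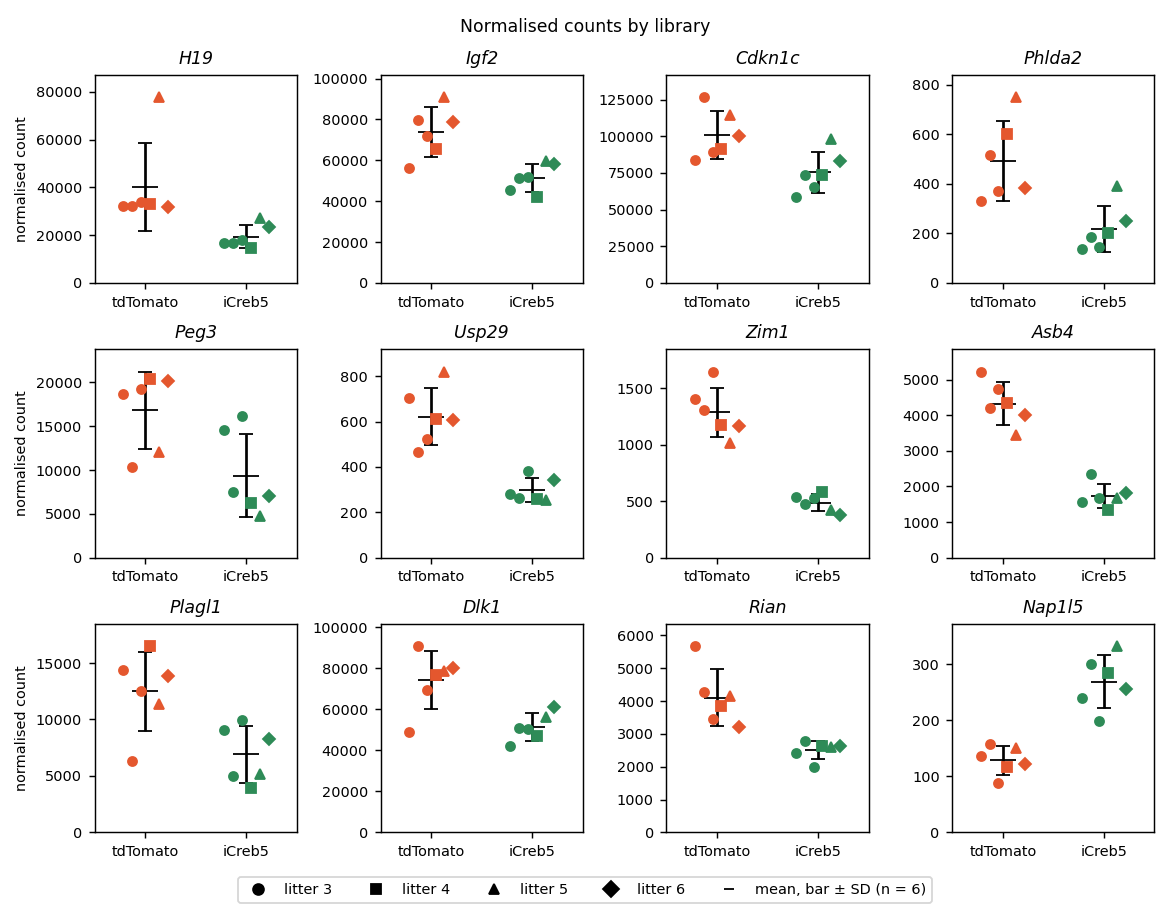
Normalised counts of 12 imprinted genes (y axis, from 0) in each library, by group on the x axis, with litter as the point shape and the mean and SD over 6 libraries in black. H19 in tdTomato 5b, at 77875, stands above the other tdTomato libraries at 31654 to 33671, and the groups do not overlap for H19, Usp29, Zim1, Asb4, Rian and Nap1l5.

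The Peg10 cluster on proximal chromosome 6 had 3 calls among 3 genes, from both parental copies. Asb4 (chr6:5383386-5433022), a maternally expressed ankyrin-repeat and SOCS-box protein of a ubiquitin ligase, had 1346, 1679 and 2349 normalised counts in iCreb5 and 3443, 4275 and 5224 in tdTomato. The groups were apart, and Asb4 fell 2.51-fold (log2 difference -1.33, SE 0.13). Peg10 (chr6:4747306-4760517), a paternally expressed retrotransposon-derived gene needed in the placenta, had 139.6, 255 and 333 in iCreb5 and 452, 472 and 790.1 in tdTomato. It fell 2.26-fold without overlap (log2 difference -1.18, SE 0.22), and iCreb5 3c was the lowest library. Ppp1r9a, which encodes the actin-binding protein neurabin, had 468, 524 and 706 and 649, 945 and 1031 and fell 1.58-fold (log2 difference -0.66, SE 0.15), with 5 of 6 iCreb5 libraries below every tdTomato library. The Ppp1r9a call was lost with litter as a replicate block when the 3rd litter was averaged (-0.57) or left out (-0.49).

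Further along chromosome 6, Mest (chr6:30723547-30748465), a paternally expressed hydrolase-like protein of mesoderm, had 77402, 87036 and 98969 normalised counts in iCreb5 and 111292, 124756 and 141418 in tdTomato. It fell 1.43-fold without overlap (log2 difference -0.51, SE 0.10). The Mest call was lost with no filter on low values, and with litter as a replicate block when the 3rd litter was averaged (-0.44) or left out (-0.38). Copg2, a coatomer subunit transcribed toward Mest from the opposite strand, had 493, 657 and 893 and 660.3, 874 and 1669.6 and was not called (log2 difference -0.49, SE 0.21). Copg2 is uncertain because 912 of its exon bases (17.8%) are also Mest exon, Mest held 106904 normalised counts on average against 841 for Copg2, and no label states whether reads were assigned by strand. Nap1l5 (chr6:58905233-58907076), a small nucleosome assembly protein gene of the paternal copy, was the only call upwards. It had 198, 270.5 and 332 in iCreb5 and 87.7, 129.7 and 157 in tdTomato, so that every iCreb5 library was above every tdTomato library, and it rose 2.09-fold (log2 difference 1.06, SE 0.18).

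In the Peg3 cluster on proximal chromosome 7, 2 of 3 genes were called. Zim1 (chr7:6671269-6696450), a maternally expressed zinc-finger gene, had 378, 502 and 577 normalised counts in iCreb5 and 1018, 1241 and 1649 in tdTomato. It fell 2.64-fold (log2 difference -1.40, SE 0.14), the largest fold change among the 42. Usp29 (chr7:6730578-6967219), a paternally expressed ubiquitin peptidase gene that starts in the stretch of sequence shown above, had 255, 271 and 381 in iCreb5 and 467, 608 and 820.0 in tdTomato. It fell 2.08-fold without overlap (log2 difference -1.06, SE 0.16). Peg3 (chr7:6703892-6730431), the paternally expressed zinc-finger protein that starts on the other side of that promoter, was far more abundant: per kilobase of merged exon it held 1262 normalised counts in tdTomato, against 34.4 for Usp29. Its counts were 4804, 7218 and 16162 in iCreb5 and 10337, 18958 and 20447 in tdTomato, with overlap, and its log2 difference of -0.94 (SE 0.28) was not called. Peg3 was called with litter as a replicate block and when iCreb5 3a, iCreb5 3c, tdTomato 3b or tdTomato 5b was left out.

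Peg3 varied widely inside the 3rd litter. Its values there were 14586, 7443 and 16162 in iCreb5 3a, 3b and 3c and 18636, 10337 and 19279 in tdTomato 3a, 3b and 3c, so that the library 3b was the lowest of its 3 in both groups. Plagl1 (chr10:13060504-13131694), a paternally expressed zinc-finger factor known to act on other imprinted genes, had the same order, with 9080, 4989 and 9927 in iCreb5 and 14353, 6281 and 12560 in tdTomato, except that tdTomato 3a was above 3c. Igf2r had 4423, 2306 and 5115 against 3160, 2467 and 3766, again with 3b lowest in both. This order was not particular to these genes: Grb10, Usp29, Copg2 and Ube3a also had 3b lowest in both groups. Many others had 3b highest in both, among them Ndn, Dlk1, Cdkn1c, Phlda2, Slc22a18, Gnas, Impact, Zrsr1 and Peg12. The order was not counted over all genes. The letters of a litter name no shared embryo in the labels. Over all libraries Plagl1 had 3929, 6740.3 and 9927 in iCreb5 and 6281, 13196 and 16478 in tdTomato and fell 1.84-fold (log2 difference -0.88, SE 0.25). This call did not hold with litter as a replicate block over all 12 libraries, although it did with that block when the 3rd litter was averaged (-1.10) or left out (-1.31), nor did it hold when any of 8 single libraries was left out (iCreb5 3b, 4a and 5, tdTomato 3a, 3c, 4a, 5b and 6d).

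The log2 difference was nearer to 0 in the 3rd litter than in the 4th to 6th litters together for 20 of the 42 imprinted genes, and farther from 0 for 22. Of 4 genes nearer to 0 or of the other sign, chosen after their values were seen, Peg3 had -0.36 in the 3rd and -1.52 in the others, Plagl1 -0.44 and -1.31, Grb10 -0.24 and -0.66, and Igf2r 0.28 and -0.70. Other genes had the opposite order, such as Copg2 with -0.88 in the 3rd litter and -0.10 in the others, Rian with -0.87 and -0.51, and Phlda2 with -1.37 and -1.05. The difference between the litter sets did not pass the test for any of the first 4: limma's interaction term gave adjusted p = 0.802 for Peg3, 0.837 for Plagl1, 0.872 for Grb10 and 0.802 for Igf2r. Over all 16733 genes the limma interaction called 0 at an adjusted p under 0.05 and 1012 at an unadjusted p under 0.05, of which 5 were among the 42. In all, 33 of the 42 imprinted genes had a difference of the same sign in both litter sets, and 28 were below 0 in both.

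The cluster from Snrpn to Ube3a, whose human counterpart is lost in Prader-Willi and Angelman syndromes, had 1 call among 6 genes. Magel2 (chr7:62377010-62381640), a paternally expressed MAGE family protein, had 363, 487 and 573 normalised counts in iCreb5 and 540.1, 804 and 937 in tdTomato and fell 1.61-fold (log2 difference -0.69, SE 0.16), with 5 of 6 iCreb5 libraries below every tdTomato library. Its neighbour Ndn, encoding the MAGE protein necdin, ranged 8018 to 9959.7 in iCreb5 and 8326 to 11609.6 in tdTomato, with a 95% interval of -0.31 to 0.12 for its log2 difference. Snrpn, a splicing ribonucleoprotein gene that shares exons with Snurf and Gm38393, had the only interval of this cluster above 0 (0.01 to 0.56) and was not called. Mkrn3, Peg12 and Ube3a had log2 differences of 0.14, -0.04 and -0.01. The Ube3a interval was -0.26 to 0.24; in most tissues outside neurons this ubiquitin ligase is expressed from both copies.

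Among the remaining loci, Ddc (chr11:11814101-11898144), the aromatic amino acid decarboxylase beside Grb10, had 70, 96.4 and 169 normalised counts in iCreb5 and 169, 202 and 297 in tdTomato. It fell 2.07-fold (log2 difference -1.05, SE 0.23), with the highest iCreb5 library just under the lowest tdTomato library. Nnat, the proteolipid neuronatin of the paternal copy, had 7278, 7743 and 10272 and 4998, 5846 and 9419; its log2 difference of 0.39 (SE 0.14) was not called, and it was called higher with litter as a replicate block, with equal library totals or without tdTomato 5b. It was not called with that block when the 3rd litter was averaged (0.37) or left out (0.35). Gnas, the stimulatory G protein gene with several imprinted transcripts counted together, had a difference of -0.24 ± 0.09 (SE) and was not called. The other genes not called were Blcap, H13, Inpp5f, Mcts2, Zrsr1, Impact, Zdbf2 and Rasgrf1, with log2 differences from -0.61 (Rasgrf1, under 63 normalised counts in every library) to 0.18 (Inpp5f). Mcts2 and Zrsr1 are retrogene copies of other genes, and reads of such copies can be split between them.

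**Figure D4:**
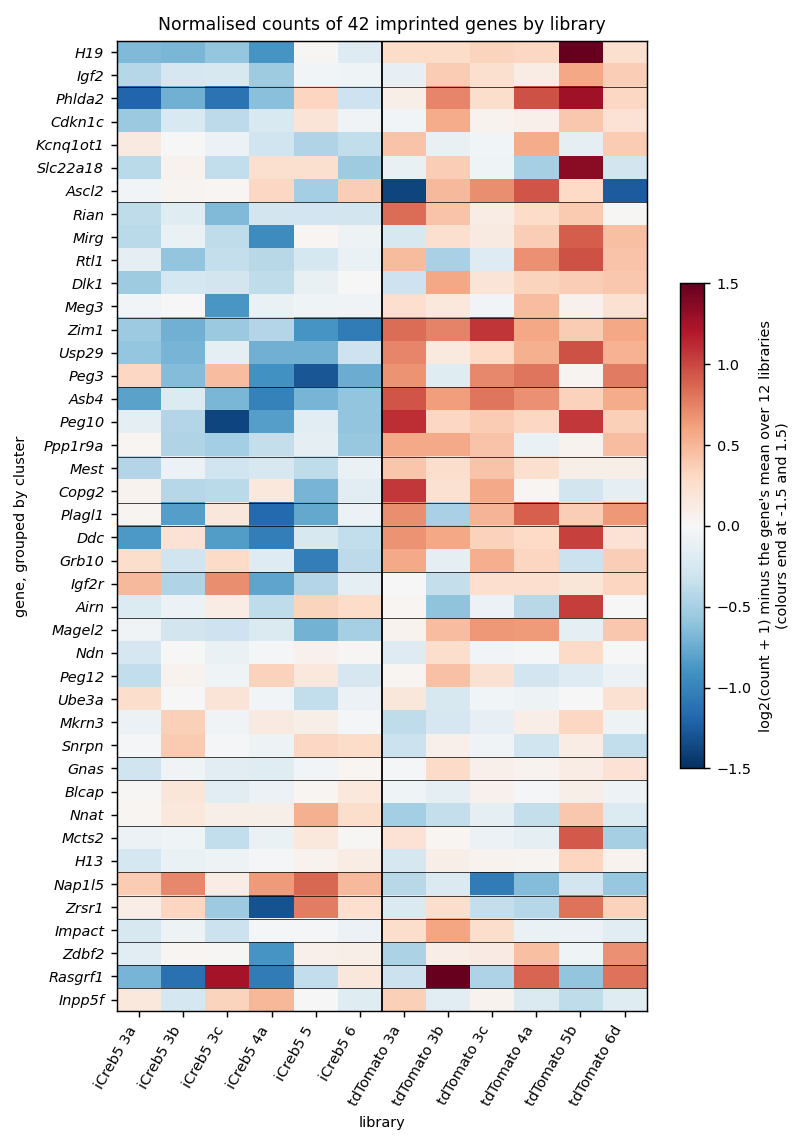
Rows are the 42 imprinted genes grouped by cluster and columns the 12 libraries; colour is log2(normalised count + 1) minus the gene's mean over the libraries, ending at -1.5 and 1.5. Blue on the left and red on the right run through the upper clusters; tdTomato 5b is the deepest red for H19, Slc22a18 and Airn, and iCreb5 3c is the deepest blue for Meg3 and Peg10.

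Levels between genes were compared per kilobase of merged exon in tdTomato, a length that overstates single transcripts. Cdkn1c held 49538 normalised counts per kilobase, rank 7 of 16733 genes, and Mest held 31856, rank 11. H19, Dlk1 and Igf2 followed at ranks 36, 58 and 59, with 16329, 13110.2 and 12909 per kilobase, and Gnas at rank 130. Dlk1 and Igf2 did not differ beyond their spread, at 74165 ± 14089 and 73878 ± 12195 normalised counts (mean ± SD, n = 6) over merged exons of 5657 and 5723 bases. Rasgrf1 was the lowest of the 42 at 2.79 per kilobase. The genes called therefore ranged from Mest to ones such as Usp29 and Ddc with under 50 per kilobase.

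Litters were compared with group held in the model, which the choice of genes had not used. Among all genes 298 (1.78%) differed between the 4 litters at an adjusted p under 0.05 in limma's F test, and among the 42 this was 1, H19 (adjusted p = 0.045). The H19 mean was 17131 in the 3rd litter, 14454 in the 4th, 27070.3 in the 5th and 23323 in the 6th in iCreb5, and 32752, 33230 and 77875 in the 3rd, 4th and 5th and 31654 in the 6th in tdTomato, where only the 3rd litter has more than 1 library a group. The 5th litter was the highest in both groups. Without tdTomato 5b H19 was no longer called, and the same held without any of iCreb5 3a, 3b, 3c and 4a and tdTomato 3a, 3c and 4a. Leaving out single libraries gave 0 to 5 of the 42 in place of 1, with 5 without tdTomato 3b (H19, Phlda2, Grb10, Nnat and Airn). Batch labels follow the litters exactly, so the effects of a litter and of its batch cannot be told apart. Of the 6 red cell markers tested 5 differed between litters in the same test, and any link to the H19 difference was not tested.

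Neighbours in a cluster were also compared library by library, for 8 pairs in each group of 6 libraries (16 relations, log2 scale), and 1 of the 16 passed after adjustment, while 5 had an unadjusted p under 0.05 for Pearson's r. Cdkn1c and Phlda2 moved together in iCreb5, with Pearson r = 0.98 (exact permutation p = 0.00278, the smallest that 6 libraries allow here, two-sided; 0.0444 after Benjamini-Hochberg adjustment) and Spearman rho = 0.94 (exact permutation p = 0.0167, adjusted 0.133). Without the 2 libraries farthest from the median of Cdkn1c r was 0.99, and in tdTomato r was 0.59 (exact permutation p = 0.226, adjusted 0.517) with rho = 0.71 (exact permutation p = 0.136, adjusted 0.363). H19 and Igf2 had r = 0.92 in iCreb5 (exact permutation p = 0.0153, adjusted 0.0815) with rho = 0.94 (exact permutation p = 0.0167, adjusted 0.133), did not pass, and had r = 0.84 without the 2 farthest libraries. In tdTomato their r was 0.62 (exact permutation p = 0.272, adjusted 0.544), rho was 0.14 (exact permutation p = 0.803, adjusted 0.919) and r was 0.14 without the 2 farthest libraries, so that it rests on those libraries, tdTomato 5b among them. Peg3 and Usp29, which share a promoter, had r = 0.61 in iCreb5 (exact permutation p = 0.165, adjusted 0.441), 0.42 without the 2 farthest libraries, and rho = 0.83 (exact permutation p = 0.0583, adjusted 0.187). In tdTomato their r was 0.08 (exact permutation p = 0.90, adjusted 0.95) and rho 0.09 (exact permutation p = 0.919, adjusted 0.919). Mest and Copg2, which overlap in the annotation, had r = 0.92 in tdTomato (exact permutation p = 0.0139, adjusted 0.0815), 0.92 without the 2 farthest libraries, and rho = 0.89 (exact permutation p = 0.0333, adjusted 0.178). In iCreb5 their r was -0.02 (exact permutation p = 0.95, adjusted 0.95) and rho -0.09 (exact permutation p = 0.919, adjusted 0.919). Ndn and Magel2 had r = -0.83 in iCreb5 (exact permutation p = 0.0417, adjusted 0.133) and rho = -0.83 (exact permutation p = 0.0583, adjusted 0.187), and did not pass; r was -0.45 without the 2 farthest libraries. Meg3 and Rian had r = 0.94 in iCreb5 (exact permutation p = 0.0417, adjusted 0.133) with rho = 0.49 (exact permutation p = 0.356, adjusted 0.813), and r was -0.70 without the 2 farthest libraries, so that it rests on those libraries. No litter holds 6 libraries of a group, so none of these relations could be computed within a litter, and differences between the groups in r were not tested. The permutations treat the 6 libraries as exchangeable, so their p-values ignore the grouping by litter and batch. For both Cdkn1c and Phlda2 the highest iCreb5 libraries were iCreb5 5 and iCreb5 6. The same held for Ndn, H13 and Gnas of other clusters, though not for Mest, which was highest in iCreb5 3b. Ndn had the same order of all iCreb5 libraries as Cdkn1c (3a lowest, then 3c, 4a, 3b, 6 and 5). Genes of different clusters were not paired, so whether any relation is particular to neighbours was not tested.

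**Figure D5:**
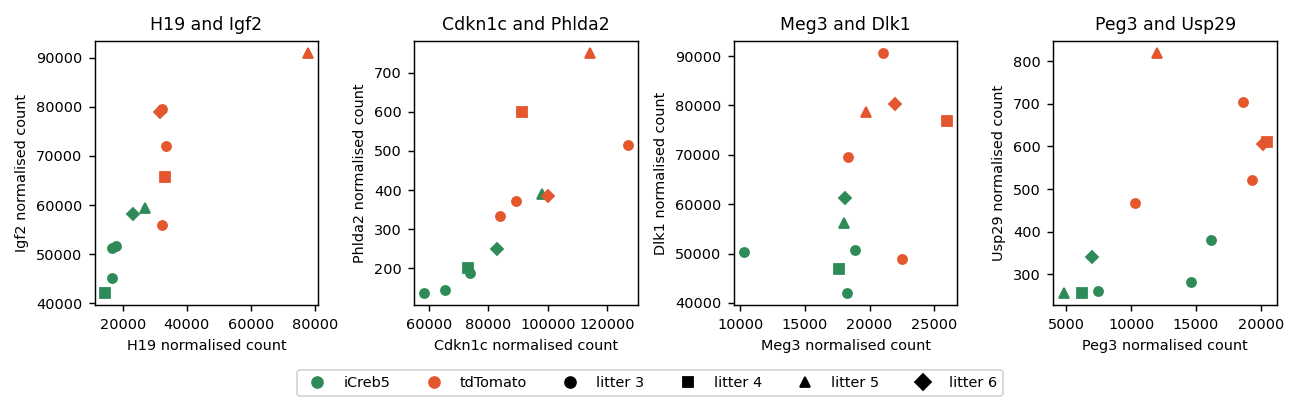
Each panel plots the normalised counts of 2 neighbouring imprinted genes against each other, a point per library (colour, group; shape, litter). In the panel of Cdkn1c and Phlda2 the 6 iCreb5 points lie close to a line (r = 0.98 on the log2 scale), and in that of H19 and Igf2 tdTomato 5b lies far to the right.

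Other imprinted genes and the factors that keep imprints were examined as lists. Of 30 other imprinted genes 21 were tested and 1, Klf14, a maternally expressed zinc-finger gene of the Mest region, fell, from 720.2 ± 93.4 in tdTomato to 441 ± 79.5 in iCreb5 (mean ± SD, n = 6 each; log2 difference -0.72). Its groups did not overlap; 14 of the 21 were below 0 and the median was -0.14. The most abundant of this list, Dcn and Cd81, had log2 differences of 0.04 and -0.15 and were not called. Of 26 factors that set or keep imprints 22 were tested and none was called by limma, edgeR or DESeq2 (1 had an unadjusted p under 0.05), with 8 below 0 and a median of 0.08. Trim28, a corepressor that protects methylated imprints in the early embryo, held 8081 ± 291 normalised counts in iCreb5 and 7407 ± 708 in tdTomato, and the DNA methyltransferase Dnmt3a held 5909 ± 1453 and 4799.7 ± 1265.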

How the data were processed

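Bulk RNA-seq values of 12 libraries, 6 iCreb5 and 6 tdTomato, were used as deposited. Per the submitters' processing notes the tools were FastQC, STAR, Salmon and DESeq2 and the build mm10, with no version or role. The deposited signal is a read count per gene divided by a size factor for the library, which the authors computed; dividing each library by the value of 1 read gave whole reads for 100% of values within 1e-06. In a further deposited file, 8 columns matched no labelled sample and were not used.

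Values were tested as log2(value + 1) with limma 3.58.1 (R 4.3.3) over the 16733 genes with at least 10 in at least 6 libraries, without litter in the model, with Benjamini-Hochberg adjustment over all of them; called means an adjusted p under 0.05. The scripts were tested on simulated data. Whole reads were also tested with edgeR 4.0.16 and DESeq2 1.42.0. Further tests were a litter F test with group in the model, an interaction of group with litter set, and exact permutation tests of pairs. The other alternatives were litter as a block, single litter sets, pseudocounts, filters, equal totals and leaving out libraries.

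The 42 genes, the lists and the tests were chosen with earlier results of these data known. All 42 are accounted for; from each list the called genes (up to 4) and the 2 most abundant genes not called are named, except that marker lists not called are given by counts. The labels name 4 litters while the series' design text speaks of 6. Litters pair the libraries by label; deviations from group means correlated at 0.15 in the 4th, 0.35 in the 5th, 0.00031 in the 6th and -0.24 to 0.21 in the 3rd litter. The labels do not say that libraries of a litter are separate embryos. The spread among the libraries of a group in the 3rd litter may therefore be technical only. The main test counts these libraries as independent, so its p-values may be too small. Gene positions are from GENCODE M21 on GRCm38, and promoter and miRNA sequences from RefSeq on GRCm38.p6. No promoter window was used for 5 genes.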

Additional observations from a re-analysis of the deposited data

Results flagged for a closer look

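In 7 of 84 groups of 6 libraries a single library lay far from the others, by a gap that passed Dixon's 95% limit. Chance alone gives about 1 in 20 for independent groups of normally distributed values. The 84 groups come from the same 12 libraries and are not independent, so the 7 cannot be set against that rate. In tdTomato 5b this held for 4 genes, each as the highest library: H19 at 77875 normalised counts (the other 5 tdTomato libraries at 31654 to 33671), Airn at 1171 (375 to 581), Nnat at 9419 (4998 to 6415) and Slc22a18 at 148 (40.4 to 74.1). In iCreb5 3c Meg3 was the lowest at 10306 (the other 5 iCreb5 libraries at 17641 to 18881) and Rasgrf1 the highest at 51.6 (9.19 to 23.8). Zdbf2 was the lowest in iCreb5 4a at 259.6 (431 to 509.8).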

How the results depend on the processing

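Across 25 other settings, 4 of the 15 called genes (H19, Phlda2, Asb4 and Zim1) were called in all, and 12 of 15 whenever any single library was left out; the exceptions were Igf2, Dlk1 and Plagl1. Litter as a replicate block gave 2 genes called higher in place of 1 (Nnat added), added Peg3 and Cdkn1c to those called lower and removed Plagl1, and changed no other call among the 42. Equal totals, the omission of tdTomato 5b and the omission of tdTomato 3a with 5b also gave 2 called higher; the 3rd litter alone gave 0 higher and 7 lower, DESeq2 17 lower (Mirg, Peg3 and Cdkn1c added) and no filter 10 lower (Mest, Igf2, Dlk1 and Plagl1 removed). With the block, the 3rd litter averaged added Peg3 and Grb10 and removed Ppp1r9a and Mest, and the 4th to 6th litters alone added Peg3, Grb10, Igf2r and Kcnq1ot1 and removed Ddc, Rian, Ppp1r9a and Mest. Leaving out single libraries gave 1 to 2 called higher, 11 to 14 called lower and 0 to 5 that differed between litters, a count that was 2 with a filter of 50. The maternal median was -0.83 in the 3rd litter and -0.51 in the 4th to 6th with a replicate block; the paternal median was -0.44 with the 3rd litter averaged and a replicate block, -0.46 in the 4th to 6th litters and -0.41 without iCreb5 5 and 6; the isoform or tissue median was -0.19 in the 4th to 6th. Without the 2 farthest libraries r changed sign for Meg3 and Dlk1 in iCreb5 (-0.012; -0.0025 with equal totals), Meg3 and Rian in iCreb5 (-0.70), Igf2r and Airn (-0.66), Peg3 and Usp29 (-0.31) and Ndn and Magel2 (0.84) in tdTomato, and Mest and Copg2 in iCreb5 (0.22); the cause was not tested. Over all genes DESeq2 called 922 higher and 715 lower against 648 and 477 in the main analysis and 641 and 471 with edgeR, and equal totals moved the share of higher calls from 57.6% to 67.7% with a shift of the median by under 0.1; in the 4th to 6th litters alone, with 330 higher and 380 lower, it was 46.5%. Depth limits the genes under 150 normalised counts, since 3 reads are worth 8.38 in tdTomato 3a.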
